A study of Mus musculus with 8 samples.

Results

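The 34 genes described here are transcripts of the endothelium, the cell layer that lines blood and lymphatic vessels. They were read from 8 RNA-seq libraries of mouse skin epidermis, in a table of 32574 genes. Of the 34, 5 are grouped as lymphatic (Prox1, Flt4, Lyve1, Mmrn1 and Reln) and 29 as blood vessel genes, although many of the latter, such as Pecam1 and Cdh5, are made in both kinds of vessel. The genes were taken by name, and they were chosen because they are high in the group called Lrig1 control. Their levels in that group are therefore a description, and no p-value is given for a member in any comparison that contains it.

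The series concerns how the skin epidermis changes its tissue fluidity while it heals. Per the labels, every library holds polyA RNA of FACS-isolated (sorted by flow cytometry) cells of the type epithelial. K14 control and Lrig1 control carry the genotype WT, K14 ablation and Lrig1 ablation the genotype basal lineage ablation, and each of these 4 groups has 2 libraries. K14 is a keratin of basal keratinocytes and Lrig1 a membrane protein of hair follicle stem cells, but the sources used here do not say whether these names stand for a driver of the ablation, for what was sorted or for a lineage. The same holds for the strain, the age, the means of ablation, the time after it and whether a wound was made. Nor do they say whether a group's libraries come from separate animals, so the p-values speak only to the spread among these 8 libraries, which may be technical. In bulk RNA, fewer cells of a type and less RNA per cell cannot be told apart.

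As background, endothelial cells share junction and surface proteins such as VE-cadherin (Cdh5) and PECAM-1, and grow in response to vascular endothelial growth factors (VEGF), which are read by the receptors VEGFR1 (Flt1), VEGFR2 (Kdr) and, in lymphatic vessels, VEGFR3 (Flt4). The transcription factor PROX1 sets lymphatic identity, and LYVE1 is a hyaluronan receptor of lymphatic capillaries that some macrophages also carry. In the skin, venules of the dermis show E-selectin and P-selectin to passing leukocytes. The epidermis itself holds no vessels.

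The depth was 6458636 to 11654135 reads per library, and the smallest count taken as present, 3 reads, corresponds to a normalised read count of 2.12 to 4.23 depending on the library. Levels below are normalised read counts, the reads of a gene divided by a factor for its library, and a pair of values before a group's name gives its replicates 1 and 2. Replicates differed by more than sampling noise in all 4 pairs, by a chi-square of their reads (1.57 per gene for K14 control and 2.58 for Lrig1 control, 27.7 for K14 ablation and 39.5 for Lrig1 ablation), so the ablation pairs were the less alike. Mitochondrial reads made up 2.34% to 2.91% of the 4 K14 libraries, 6.29% and 6.89% of Lrig1 control and 3.14% and 4.14% of Lrig1 ablation; their part in the differences below was not tested. The labelled cell type matched the data: 12 keratinocyte genes summed to 184066 to 369949 per library, while the 5 lymphatic genes summed to 31.5 to 1079.8 and the 29 blood vessel genes to 592 to 2209.

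Promoter windows of 300 bases, from 250 before to 50 after the start of a RefSeq transcript (GRCm38.p6), were on hand for 20 of the 34 genes, 25 windows in all. Parts of 5 are shown because they hold the letters of motifs bound by factors of endothelial and inflammatory gene control, searched on both strands: the ETS-type motifs CAGGAAG and CCGGAAG, the SOX-type motif AACAAT and the AP-1 motif TGANTCA. Capitals mark the motif letters. Sele and Selp, the selectin genes, lie near each other on chromosome 1; Robo4 and Emcn are blood vessel genes, and Reln is lymphatic. Each run reads along its gene's strand, and in Reln and, for CAGGAAG, in Emcn the capitals spell the motif as it stands on the opposite strand.
Sele, chr1:164048084-164048233, plus strand: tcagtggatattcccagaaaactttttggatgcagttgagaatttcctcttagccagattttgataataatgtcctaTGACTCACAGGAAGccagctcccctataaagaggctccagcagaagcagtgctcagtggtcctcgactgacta
Selp, chr1:164115114-164115263, plus strand: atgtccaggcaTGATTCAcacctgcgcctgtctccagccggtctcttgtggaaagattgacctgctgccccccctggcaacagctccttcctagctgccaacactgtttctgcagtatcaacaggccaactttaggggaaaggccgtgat
Robo4, chr9:37401822-37401971, plus strand: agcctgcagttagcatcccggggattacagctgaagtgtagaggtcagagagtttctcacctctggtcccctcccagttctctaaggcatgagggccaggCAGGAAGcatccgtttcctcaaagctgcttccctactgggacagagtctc
Emcn, chr3:137340878-137341077, plus strand: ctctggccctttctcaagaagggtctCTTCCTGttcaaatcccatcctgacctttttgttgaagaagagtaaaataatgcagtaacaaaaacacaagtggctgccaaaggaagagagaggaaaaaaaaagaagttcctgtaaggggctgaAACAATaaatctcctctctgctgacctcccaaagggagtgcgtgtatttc
Reln, chr5:22344706-22344905, minus strand: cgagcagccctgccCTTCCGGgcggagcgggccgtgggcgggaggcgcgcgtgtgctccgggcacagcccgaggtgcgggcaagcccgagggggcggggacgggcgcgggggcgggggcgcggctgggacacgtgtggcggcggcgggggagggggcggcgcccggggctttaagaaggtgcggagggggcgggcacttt

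In Sele the AP-1 motif begins 73 bases before the start and the ETS-type motif follows it directly, 66 bases before the start. In Selp the AP-1 motif begins 139 bases before the start, and in Robo4 CAGGAAG begins 50 bases before it. CAGGAAG was found in 8 of the 25 windows (32%), from 7 genes, and in 13.3% of the 32851 windows of the whole table. CCGGAAG stood in 1 of 25 (4%, Reln) against 8.86%, AACAAT in 16% against 10.7%, and TGANTCA in 8% (Sele and Selp) against 7.81%. These shares describe the letters of the windows and were not tested, since transcripts of 1 gene share sequence; a match is not a site.

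The 5 lymphatic genes were all highest in Lrig1 control (coordinates here and below are on GRCm38). Prox1 (ENSMUSG00000010175, chromosome 1, 190118035 to 190170714, minus strand), the transcription factor of lymphatic identity, was at 4.06 and 2.95 (K14 control), 4.25 and 2.14 (K14 ablation), 67.5 and 47.9 (Lrig1 control), and 6.21 and 5.57 (Lrig1 ablation). Flt4 (ENSMUSG00000020357, chromosome 11, 49609263 to 49652739, plus strand), which codes for the receptor of VEGF-C and VEGF-D, was at 2.03 and 2.95 (K14 control), 9.198 and 3.22 (K14 ablation), 123 and 135 (Lrig1 control), and 19.5 and 5.57 (Lrig1 ablation). Lyve1 (ENSMUSG00000030787, chromosome 7, 110850607 to 110863239, minus strand), the hyaluronan receptor, was at 14.2 and 12.8 (K14 control), 9.198 and 13.9 (K14 ablation), 239 and 285 (Lrig1 control), and 49.7 and 74.8 (Lrig1 ablation). Both Lrig1 control libraries lay above the other 6 for each of these genes, and those of Lrig1 ablation lay between them and the K14 libraries for Prox1 and Lyve1, while for Flt4 they overlapped K14 ablation.

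Mmrn1, which codes for multimerin 1, a large secreted glycoprotein of endothelial cells and platelets, was at 6.09 and 14.8 (K14 control), 19.1 and 8.58 (K14 ablation), 368 and 426 (Lrig1 control), and 32.8 and 19.9 (Lrig1 ablation). Reln, the secreted glycoprotein reelin, was at 5.08 and 7.88 (K14 control), 12.03 and 8.58 (K14 ablation), 193 and 186 (Lrig1 control), and 21.3 and 14.3 (Lrig1 ablation). Both showed the order of Prox1, with Lrig1 control far above, then Lrig1 ablation, then the 4 K14 libraries, which overlapped for Mmrn1. As group means ± SD (n = 2 libraries), Mmrn1 was at 10.4 ± 6.13 in K14 control and 397 ± 40.9 in Lrig1 control, a ratio of 38.04. The same ratio was 16.5 for Prox1, 51.9 for Flt4, 19.4 for Lyve1 and 29.3 for Reln.

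The receptors of vascular growth factors varied more. Kdr (ENSMUSG00000062960, chromosome 5, 75932827 to 75978458, minus strand), the main signalling receptor of VEGF-A on blood vessels, was at 0 and 0 (K14 control), 9.905 and 3.22 (K14 ablation), 71.01 and 78.9 (Lrig1 control), and 7.99 and 2.39 (Lrig1 ablation). No read of Kdr was found in K14 control, so with the floor of 3 reads per library it was at least 24.99-fold higher in Lrig1 control. Flt1, a VEGF-A receptor that also acts as a decoy, was at 10.2 and 12.8 (K14 control), 4.95 and 33.2 (K14 ablation), 37.3 and 33.8 (Lrig1 control), and 5.33 and 7.16 (Lrig1 ablation). Its library K14 ablation 2 came close to Lrig1 control, so that the K14 ablation pair spanned K14 control. Eng, endoglin, a co-receptor for TGF-beta family ligands, was at 21.3 and 27.6 (K14 control), 21.2 and 32.2 (K14 ablation), 95.5 and 100.1 (Lrig1 control), and 25.7 and 28.7 (Lrig1 ablation). Lrig1 control stood apart for Eng, and the other 6 libraries overlapped. Tek and Tie1, the angiopoietin receptor and its partner, ranged from 0 to 3.05 in the K14 libraries, from 27.9 to 45.4 in Lrig1 control and from 3.18 to 8.76 in Lrig1 ablation. Aplnr, the apelin receptor, stayed between 0 and 4.66 in all 8 libraries.

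Ramp2, an accessory protein of the adrenomedullin receptor, did not share the pattern, at 326 and 285 (K14 control), 359 and 369 (K14 ablation), 368 and 329.9 (Lrig1 control), and 354 and 256 (Lrig1 ablation). Its groups lay close together. Both K14 ablation libraries lay above K14 control and above Lrig1 ablation, and both Lrig1 control libraries lay above K14 control and overlapped the ablation groups. In the annotation Ramp2 shares 1103 exon bases on the same strand with Vps25, a gene of endosomal sorting. Vps25 was at 331 and 286 (K14 control), 361 and 369 (K14 ablation), 356 and 314 (Lrig1 control), and 351 and 255 (Lrig1 ablation), nearly the values of Ramp2, so how reads were divided between these genes, and with it the level of Ramp2, is uncertain.

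Among junction and surface genes, Pecam1 (ENSMUSG00000020717, chromosome 11, 106654217 to 106750628, minus strand), the adhesion molecule PECAM-1 of endothelial cells, platelets and some leukocytes, was at 67.03 and 49.2 (K14 control), 66.5 and 18.2 (K14 ablation), 194 and 239.6 (Lrig1 control), and 36.4 and 107 (Lrig1 ablation). It was also present in both K14 groups, and the 2 libraries of each ablation group differed widely. Cdh5 (ENSMUSG00000031871, chromosome 8, 104101625 to 104144511, plus strand), VE-cadherin of the adherens junction, was at 3.05 and 3.94 (K14 control), 7.08 and 8.58 (K14 ablation), 93.1 and 113 (Lrig1 control), and 4.44 and 3.18 (Lrig1 ablation). Its K14 ablation libraries lay above K14 control and above Lrig1 ablation, all far below Lrig1 control. Emcn, the sialomucin endomucin of veins and capillaries, was at 0 and 0.985 (K14 control), 3.54 and 3.22 (K14 ablation), 50.1 and 54.98 (Lrig1 control), and 0.887 and 1.59 (Lrig1 ablation). Emcn had 1 read in all of K14 control, so no ratio is given. Plvap, which builds the diaphragms of fenestrae and caveolae, was at 4.06 and 4.92 (K14 control), 5.66 and 10.7 (K14 ablation), 89.6 and 71.9 (Lrig1 control), and 3.55 and 2.39 (Lrig1 ablation). As for Cdh5, K14 ablation lay above both K14 control and Lrig1 ablation.

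Cd93, a surface lectin-like receptor that binds multimerin 2, was at 12.2 and 18.7 (K14 control), 12.03 and 18.2 (K14 ablation), 109 and 114 (Lrig1 control), and 23.96 and 14.3 (Lrig1 ablation). Mmrn2, which codes for that matrix ligand, was at 9.14 and 10.8 (K14 control), 11.3 and 17.2 (K14 ablation), 32.6 and 46.5 (Lrig1 control), and 6.21 and 11.9 (Lrig1 ablation). For both, Lrig1 control stood above the rest, by 7.24-fold over K14 control for Cd93 and by 3.96-fold for Mmrn2. Egfl7, a secreted endothelial factor whose gene hosts miR-126, was at 17.3 and 12.8 (K14 control), 37.5 and 25.7 (K14 ablation), 41.9 and 45.1 (Lrig1 control), and 33.7 and 18.3 (Lrig1 ablation). The lead of Lrig1 control was small for Egfl7, 2.89-fold over K14 control, and K14 ablation 1 came close to it. Exons of Egfl7 overlap those of Agpat2 on the opposite strand, and since the strand setting of the counting is not given, reads of such pairs cannot be told apart. Of the other surface genes, the tight junction gene Cldn5 was at 0 to 2.12 in the K14 libraries, at 17.5 and 28.2 in Lrig1 control and at 4.44 and 1.59 in Lrig1 ablation. Robo4, a guidance receptor of vessels, was at 0 to 1.02, at 20.95 and 15.5, and at 1.77 and 0.796. The adhesion genes Esam and Icam2 and the lectin gene Clec14a stayed at 0 to 5.36 outside Lrig1 control and at 4.66 to 15.5 in it.

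Genes of leukocyte and platelet contact included one with no reads in Lrig1 ablation. Sele (ENSMUSG00000026582, chromosome 1, 164048234 to 164057677, plus strand), E-selectin, was at 3.05 and 5.91 (K14 control), 6.37 and 1.07 (K14 ablation), 218 and 189 (Lrig1 control), and 0 and 0 (Lrig1 ablation). With no read in either Lrig1 ablation library, Sele was at least 80.5-fold lower there than in Lrig1 control. Selp (ENSMUSG00000026580, chromosome 1, 164115264 to 164150026, plus strand), P-selectin, was at 2.03 and 3.94 (K14 control), 2.12 and 1.07 (K14 ablation), 128 and 156 (Lrig1 control), and 0 and 2.39 (Lrig1 ablation). Antisense genes overlap exons of Selp, with values up to 26.8 in Lrig1 control (Gm16548), and could share its reads. Vwf, von Willebrand factor, which is stored with P-selectin in endothelial granules and in platelets, was at 7.11 and 5.91 (K14 control), 7.08 and 20.4 (K14 ablation), 183 and 193 (Lrig1 control), and 0.887 and 10.3 (Lrig1 ablation). For all 3 genes Lrig1 control stood apart from the other 6 libraries, which overlapped each other except that both Sele libraries of Lrig1 ablation were below all others. Ackr1, the chemokine-binding receptor of venules, was low throughout, at 0.887 to 3.94 outside Lrig1 control and at 5.82 and 11.3 in it.

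The transcription factor genes among the blood vessel members were low. Erg, an ETS factor, was at 0 to 1.07 outside Lrig1 control and at 13.97 and 8.46 in it. Sox18 was at 0 to 1.59 and at 9.31 and 7.05. Sox17 (ENSMUSG00000025902, chromosome 1, 4490931 to 4497354, minus strand) was at 0 and 0 (K14 control), 0.708 and 0 (K14 ablation), 0 and 1.41 (Lrig1 control), and 0 and 0 (Lrig1 ablation), which is no more than 1 read in any library, below the level of 3 reads. The scavenger receptors Stab1 and Stab2, known from sinusoidal endothelium and, for Stab1, from macrophages, did not lead in Lrig1 control. Stab1 (ENSMUSG00000042286, chromosome 14, 31139013 to 31168641, minus strand) was at 324 and 343 (K14 control), 487 and 446 (K14 ablation), 253 and 223 (Lrig1 control), and 184 and 96.3 (Lrig1 ablation). Its order ran from K14 ablation down through K14 control and Lrig1 control to Lrig1 ablation, with no overlap between groups. Stab1 shares 112 exon bases on the opposite strand with Nt5dc2, which was at 737 and 863 (K14 control), 899 and 808 (K14 ablation), 513 and 498 (Lrig1 control), and 602 and 233 (Lrig1 ablation), so some of its reads could be those of Nt5dc2. Stab2 was at 10.2 and 6.89 (K14 control), 4.25 and 5.36 (K14 ablation), 4.66 and 5.64 (Lrig1 control), and 6.21 and 7.96 (Lrig1 ablation). Its K14 control and Lrig1 ablation libraries lay above those of K14 ablation and Lrig1 control, on few reads.

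**Figure D1:**
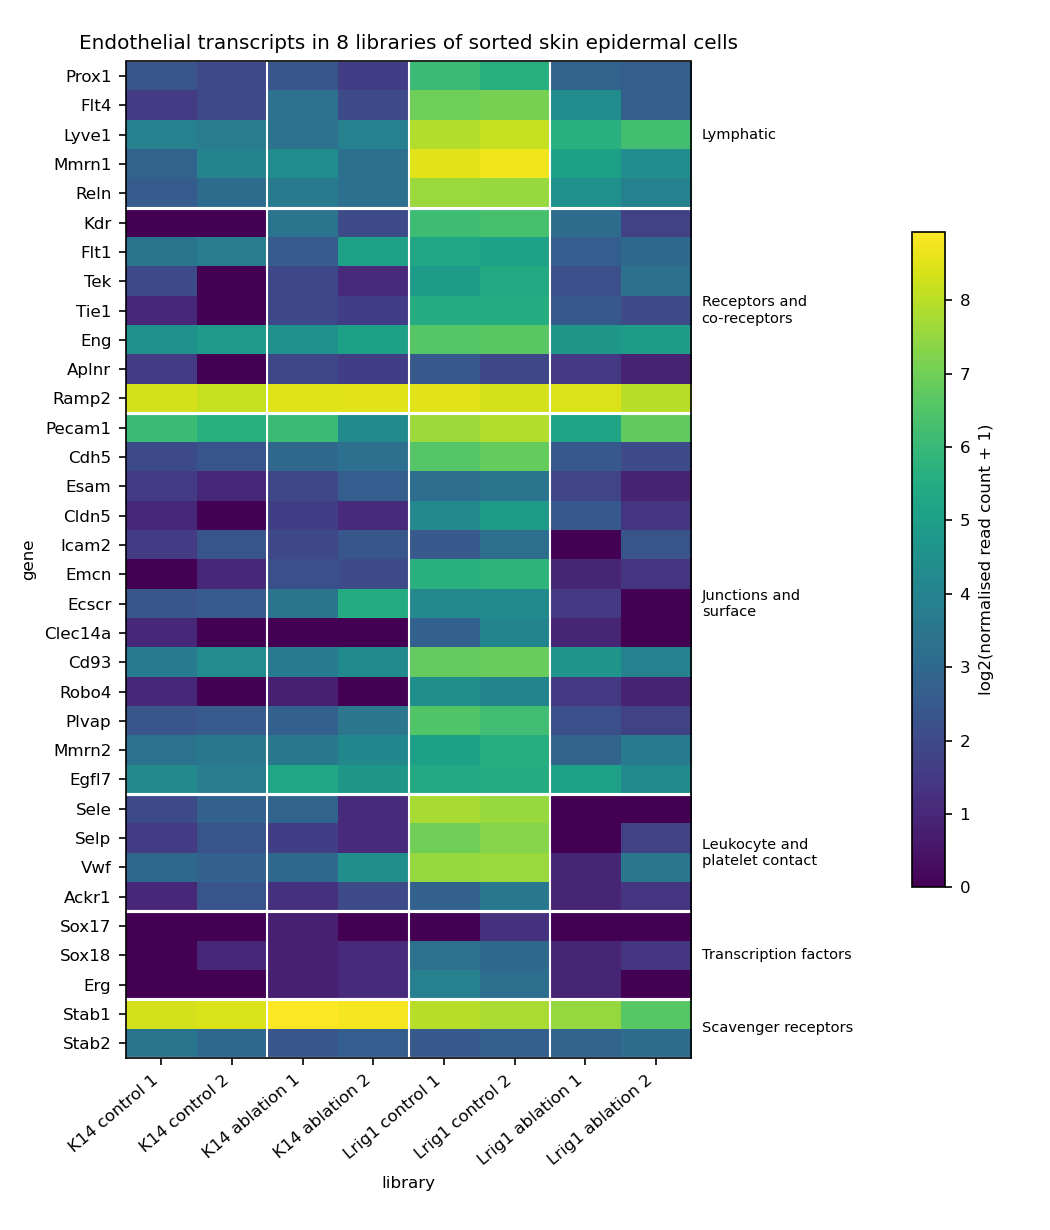
Heatmap of the 34 genes (rows, grouped by role) in the 8 libraries (columns, split by group); colour is log2(normalised read count + 1). The Lrig1 control columns are the brightest for 28 of the 34 rows, and Ramp2 and Stab1 are bright in all columns.

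**Figure D2:**
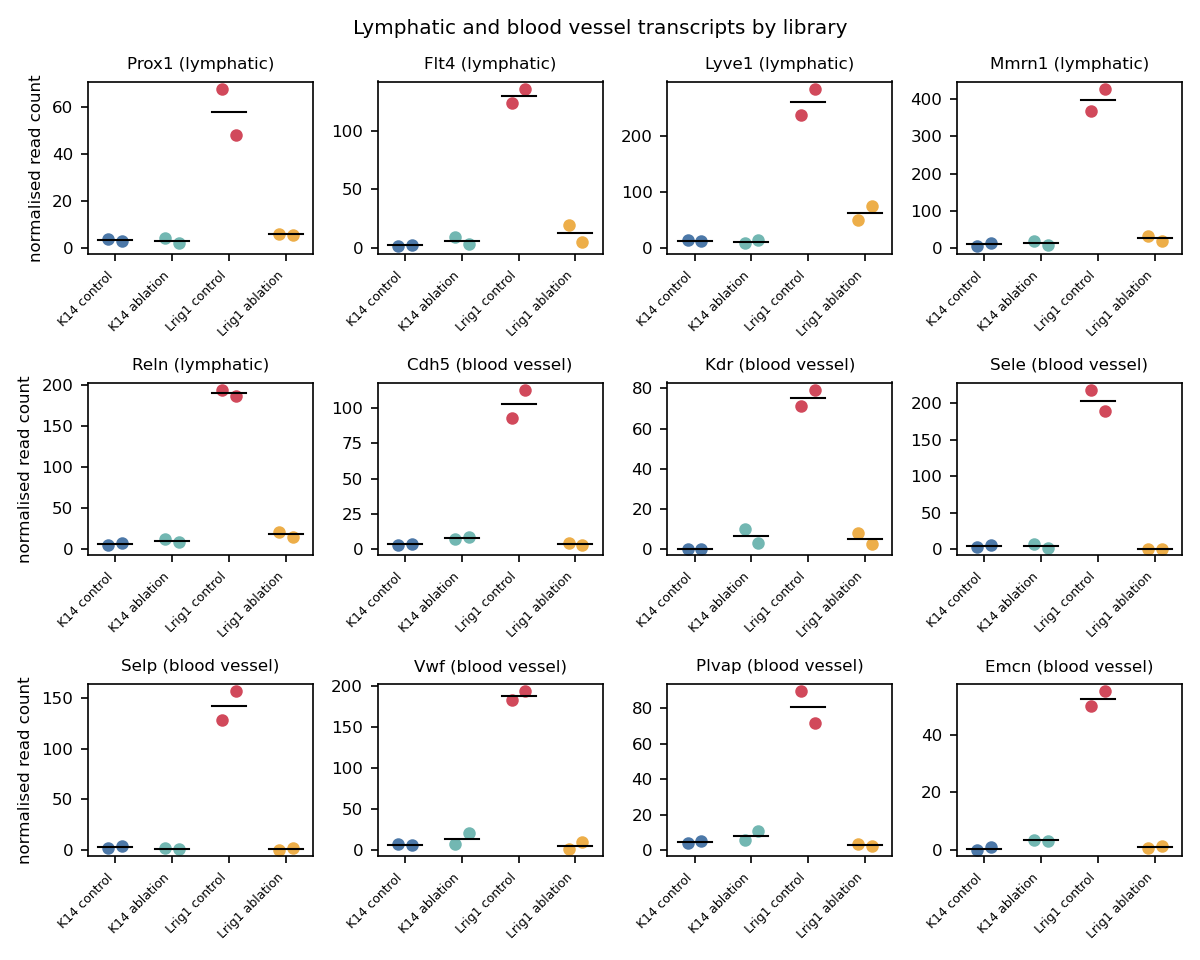
Normalised read counts (linear axes, 1 panel a gene) of 5 lymphatic and 7 blood vessel genes; each point is a library and each line the mean of the 2 libraries of a group. In every panel both Lrig1 control points lie above the other 6, and the Lyve1 points of Lrig1 ablation (49.7 and 74.8) lie above all 4 K14 points.

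Over the whole set, both Lrig1 control libraries exceeded the other 6 for 28 of the 34 genes, all 5 lymphatic and 23 of 29 blood vessel genes. Of the 26 genes that passed the filter on low values, 22 did so, and the share among all 18140 genes tested was 15.3%. Nothing is read from this, because the genes were chosen for it. The exceptions were Ramp2, Sox17, Ecscr, Aplnr, Stab1 and Stab2. Per kilobase of exon, the mean levels ± SD (n = 2) in Lrig1 control were led by Ramp2 at 106 ± 8.14 normalised reads per kilobase, Lyve1 at 89.7 ± 11.2, Sele at 69.8 ± 6.99 and Mmrn1 at 67.6 ± 6.97. Plvap (40.6 ± 6.32), Pecam1 (34.8 ± 5.14) and Selp (32.2 ± 4.55) followed, and then Cdh5 (24.5 ± 3.304), Eng (24.2 ± 0.808) and Stab1 (23.1 ± 2.05). The libraries of Sele and Mmrn1 overlapped on this scale, as did those of Plvap and Pecam1, of Pecam1 and Selp, and of Cdh5, Eng and Stab1, so the order within these is not resolved. The other genes ran from 16.7 (Cd93) down to 0.148 (Sox17). Among lymphatic genes Lyve1 and Mmrn1 stood above Flt4 (15.7 ± 1.02), Reln (7.99 ± 0.214) and Prox1 (6.88 ± 1.65) on this scale, the last pair overlapping.

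Tests across all genes were run with limma on log2(normalised read count + 1), so that differences understate the change of low genes. The filter asked for a share of 1e-06 or more of all signal in 2 or more libraries. It was passed by all 5 lymphatic and 21 of 29 blood vessel genes, and only 16 of the 34 would have passed without the Lrig1 control libraries. Ackr1, Aplnr, Clec14a, Erg, Esam, Icam2, Sox17 and Sox18 were not tested.

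In the K14 pair of groups, which asks what basal lineage ablation does to these transcripts where few were present, no member passed the test. Of the 26 tested, 0 passed an adjusted p of 0.05 in limma, edgeR or DESeq2, where 0.187%, 0.176% and 1.21% of all genes tested passed. An unadjusted limma p under 0.05 was found for 5 of the 26, and for 2327 of all 18140 genes tested. Those 5 were blood vessel genes with values above the control: Kdr by 2.76 ± 0.67 (log2 difference ± SE, limma adjusted p = 0.185), Ecscr by 2.02 ± 0.77 (adjusted p = 0.338), Emcn by 1.63 ± 0.58, Egfl7 by 1.01 ± 0.40 (adjusted p = 0.347) and Cdh5 by 0.98 ± 0.42. Emcn and Cdh5 passed the filter on low values only through the Lrig1 control libraries. No adjusted p-value is given for them, and the count of 5 is a description. Kdr rests on 14 and 3 reads in K14 ablation against none in K14 control, so its value depends on the pseudocount, and passed (adjusted p = 0.0461) when Lrig1 ablation 2 was left out of the fit. Ecscr, an endothelial surface protein, was at 4.06 and 4.92 (K14 control), 9.905 and 43.95 (K14 ablation), 17.5 and 18.3 (Lrig1 control), and 1.77 and 0 (Lrig1 ablation). Most of its level in K14 ablation came from 1 library, in which the overlapping gene 1700066B19Rik on the opposite strand was also at its highest (26.8).

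Counted by position alone, both K14 ablation libraries lay above both K14 control libraries for 16 of the 34 genes (Flt4 and Reln among the lymphatic, and 14 blood vessel genes including Cdh5, Kdr, Tie1, Emcn, Plvap and Stab1) and below for 1, Stab2. Among the 26 tested this was 13 above and 1 below, against 27.4% above and 25.7% below among all genes tested. The median log2 difference was 0.39 over the 5 lymphatic genes and 0.48 over the 21 tested blood vessel genes, and -0.0018 over all genes tested. Members that passed the filter only through Lrig1 control are in these counts, so they describe the tested members and support no statement on the list. For 15 of the 16 genes above control in K14, all but Ramp2, both Lrig1 ablation libraries lay below both Lrig1 control libraries, and for Stab2 both lay above. Of the 26 tested, 12 were above in K14 and below in Lrig1, and 6.31% of all genes tested were. Nothing is read from this, because the choice of genes high in Lrig1 control largely fixes their position in the Lrig1 pair.

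The 2 ablation groups, neither of which was used to choose the genes, allow the lymphatic and blood vessel genes to be set side by side. Lyve1 was higher in Lrig1 ablation than in K14 ablation, by 2.33 ± 0.33 on the log2 scale (± SE, limma adjusted p = 0.0303), and Stab1 was lower, with a difference of -1.80 ± 0.28 (adjusted p = 0.0367). Nt5dc2, whose exons overlap those of Stab1, was also lower in both Lrig1 ablation libraries, and its part in the Stab1 value was not tested. These were the only 2 of 26 that passed, where 0.463% of all genes tested were called higher and 0.204% lower. An unadjusted limma p under 0.05 was found for 5 of the 26, and for 2970 of all 18140 genes tested. Both calls were also made by edgeR (adjusted p = 0.0268 for Lyve1 and 0.0422 for Stab1). DESeq2 called these and Ecscr. Of all genes tested, limma called 0.667%, edgeR 0.744% and DESeq2 3.66%. The Lyve1 call was lost without either K14 control library (adjusted p = 0.0932 and 0.0947), without either Lrig1 control library (0.117 and 0.116) and without Lrig1 ablation 2 (0.0764). The Stab1 call was lost without either K14 control library (0.111 and 0.113), either K14 ablation library (0.0710 and 0.0566) and either Lrig1 control library (0.123 in each case). Leaving out a control library leaves these differences as they are and alters the shared estimate of spread and which genes are tested. Without Lrig1 ablation 1 the calls were 4, adding Ecscr and Ramp2.

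The other 4 lymphatic genes had values above K14 ablation without passing the test, at 0.94 ± 0.51 for Mmrn1, 0.82 ± 0.64 for Flt4, 0.76 ± 0.49 for Prox1 and 0.73 ± 0.38 for Reln. The limma adjusted p-values were 0.375 to 0.532 for Mmrn1, Flt4 and Reln. Of the 21 tested blood vessel genes, 8 were above 0 and 13 below. The lowest were Ecscr at -3.73 ± 0.77 (limma adjusted p = 0.08598), Sele at -1.97 ± 0.66, Stab1, Vwf at -1.51 ± 0.81 and Plvap at -1.17 ± 0.47. Prox1, Sele and Plvap passed the filter on low values only through the Lrig1 control libraries, so no p-value is given for them. The median was 0.82 over the lymphatic genes, -0.31 over the tested blood vessel genes and -0.022 over all genes tested. Members that passed the filter only through Lrig1 control are in these medians and in the counts by position that follow. Both therefore describe the members and support no statement on the lists. By position, both Lrig1 ablation libraries lay above both K14 ablation libraries for 4 of 5 lymphatic genes (all but Flt4) and for 4 of 29 blood vessel genes (Tek, Tie1, Robo4 and Stab2), and below for 0 and 9, which for the tested members is 8 above and 7 below, where all genes tested gave 19.0% above and 20.0% below.

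**Figure D3:**
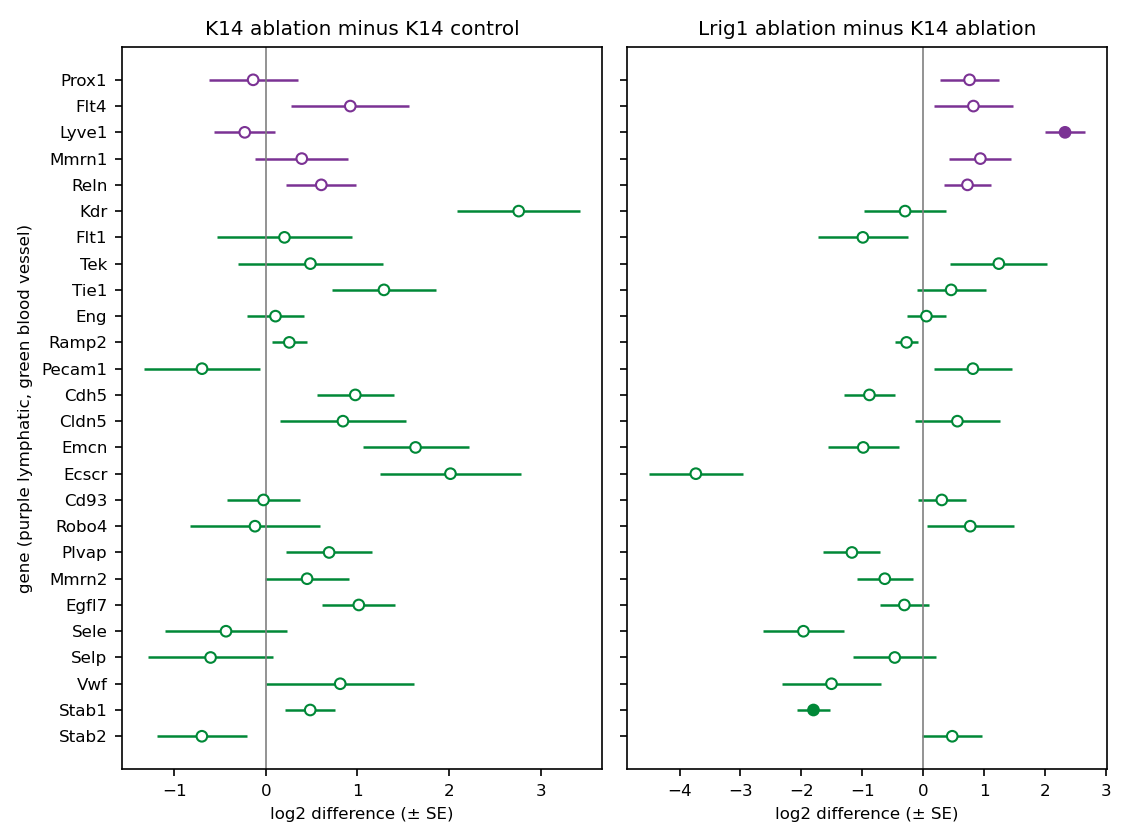
Log2 differences (x axes, points with bars of ± SE from limma) of the 26 tested genes in the 2 comparisons without Lrig1 control; purple marks lymphatic and green blood vessel genes, and filled points passed an adjusted p of 0.05. No point is filled for K14 ablation minus K14 control, and Lyve1 (2.33) and Stab1 (-1.80) are filled for Lrig1 ablation minus K14 ablation.

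Summed over genes within each library, the ratio of the lymphatic to the blood vessel level was 0.0377 and 0.0513 (K14 control), 0.04997 and 0.0338 (K14 ablation), 0.461 and 0.489 (Lrig1 control), and 0.181 and 0.203 (Lrig1 ablation). The Lrig1 ablation libraries thus lay between Lrig1 control and the K14 libraries, and the K14 groups overlapped. On the log2 scale the ratio differed by 2.22 between Lrig1 ablation and K14 ablation (two-sided exact permutation test p = 0.333, the smallest that 2 libraries against 2 allow) and by -0.098 between K14 ablation and K14 control (exact p = 0.667). Ramp2 and Stab1 made up 75.0% to 78.6% of the blood vessel sum in the K14 libraries and in Lrig1 ablation 1, 59.4% in Lrig1 ablation 2 and 25.0% and 28.9% in Lrig1 control. Without these genes, a choice made after the values were seen, the ratio was 0.138 to 0.234 in the K14 libraries, 0.648 and 0.652 (Lrig1 control), and 0.723 and 0.50 (Lrig1 ablation), and the difference between the ablation groups was 1.74. The Lrig1 ablation libraries then spanned those of Lrig1 control, from which they differed by -0.11 on the log2 scale, against -1.31 with these genes, so on these sums their place below Lrig1 control rests on Ramp2 and Stab1.

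The sums show both parts of the ratio. The lymphatic genes summed to 31.5 to 41.4 (K14 control), 36.4 to 53.8 (K14 ablation), 991 to 1079.8 (Lrig1 control) and 120.2 to 129.6 (Lrig1 ablation). The 29 blood vessel genes summed to 806 to 835 (K14 control), 1076 to 1078 (K14 ablation), 2150.2 to 2209 (Lrig1 control) and 592 to 717 (Lrig1 ablation). The lymphatic sum of Lrig1 ablation was thus above that of every K14 library, while its blood vessel sum was below all of them. Without Ramp2 and Stab1 the blood vessel sum was 179 to 185 (K14 control), 229.9 to 264 (K14 ablation), 1529.7 to 1656 (Lrig1 control) and 179 to 240.4 (Lrig1 ablation), and that of Lrig1 ablation then overlapped the K14 libraries.

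Within the Lrig1 pair of groups, 17 of the 26 tested members (5 lymphatic and 12 blood vessel genes) were called lower in Lrig1 ablation, where 4.06% of all genes tested were called and 3.3% lower. In Lrig1 control against K14 control 19 were called higher (5 and 14), where 8.79% of all genes were called and 6.52% higher. Both counts contain the group used to choose the genes, and nothing is read from them. The 17 became 9 and 10 without K14 control 1 and 2, and 0 without either Lrig1 control library; the 19 became 7 without either K14 control library and 0 without either Lrig1 control library.

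How much of the Lrig1 control level was left in Lrig1 ablation differed from gene to gene. Mmrn1 kept 6.65% of its Lrig1 control mean, Reln 9.39%, Flt4 9.70%, Prox1 10.2% and Lyve1 23.8%, a median of 9.70% for the lymphatic genes. Blood vessel genes ranged more widely around a median of 14.5%. Those least kept were Sele (0%), Sox17 (0%, from 1 read in Lrig1 control), Selp (0.839%), Emcn (2.36%), Vwf (2.99%), Plvap (3.68%) and Cdh5 (3.701%). Those most kept were Pecam1 (32.96%), Aplnr (34.4%, from few reads), Stab1 (58.9%), Egfl7 (59.8%), Ramp2 (87.4%) and Stab2 (138%, from few reads). The single libraries disagreed for several genes: Pecam1 stood at 16.8% in Lrig1 ablation 1 and 49.2% in Lrig1 ablation 2, Flt4 at 15.1% and 4.31%, and Egfl7 at 77.5% and 42.1%. Lyve1 was at 19.0% and 28.6%, above both libraries of every other lymphatic gene.

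**Figure D4:**
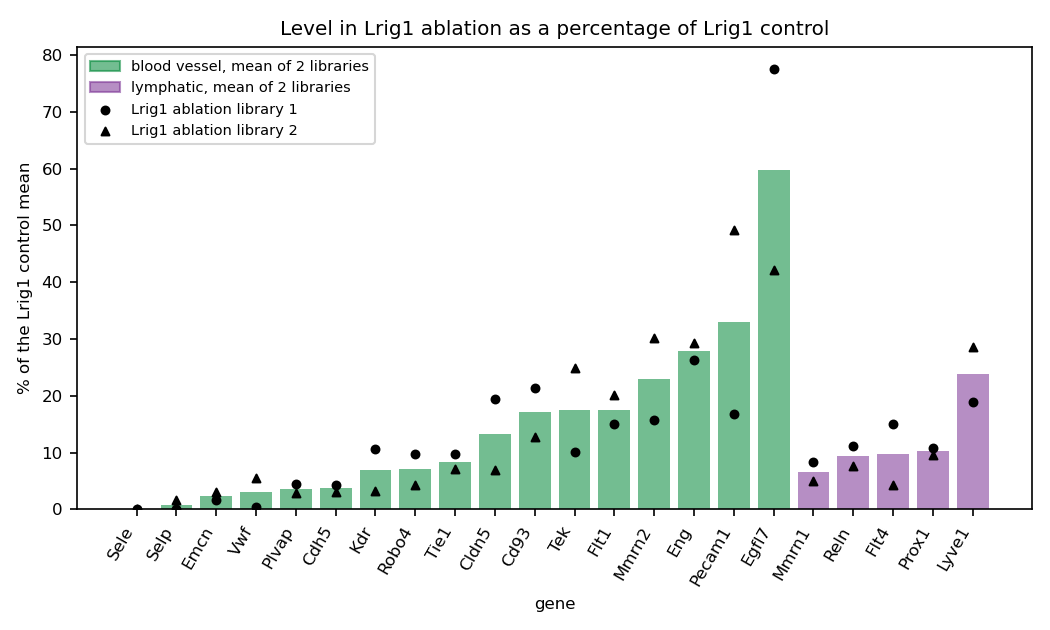
Level in Lrig1 ablation as a percentage of the Lrig1 control mean (y axis from 0) for the 22 tested genes that were highest in Lrig1 control; bars are means of 2 libraries, circles and triangles the single libraries, green blood vessel and purple lymphatic genes. Sele is at 0%, Lyve1 (23.8%) is the highest lymphatic bar and Egfl7 (59.8%) the highest of all.

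Other vascular genes, not among the members, were read from 3 further lists. These held 44 endothelial genes, 15 vascular growth factors and receptors and 14 mural (pericyte and smooth muscle) genes found in the table, and 54 of these 73 were tested. The lists were chosen with earlier results of these data known, and a gene could pass the filter through Lrig1 control alone. The counts and p-values of these lists therefore describe the tested genes and support no statement on the lists. In Lrig1 control against K14 control 16 rose and 1 fell. Of the 36 tested endothelial genes 14 rose, 1 fell and 21 did not pass, where 8.79% of all genes tested passed. S1pr1, the sphingosine-1-phosphate receptor of vessels, was at 0 and 0 (K14 control), 0.708 and 5.36 (K14 ablation), 43.1 and 40.9 (Lrig1 control), and 6.21 and 2.39 (Lrig1 ablation). It rose by at least 13.99-fold against a floor of 3 reads per library. S1pr1 passed the filter on low values only through the Lrig1 control libraries, so no p-value is given for it. Ptprb, the vascular phosphatase VE-PTP, was at 8.12 and 2.95 (K14 control), 9.198 and 9.65 (K14 ablation), 177 and 233 (Lrig1 control), and 1.77 and 10.3 (Lrig1 ablation) and rose by 5.09 ± 0.69 (log2 difference ± SE, limma adjusted p = 0.00623). Also called higher were Nos3, endothelial nitric oxide synthase (3.89 ± 0.88), Adgrl4 (3.63 ± 0.68), Adgrf5 (3.46 ± 0.47), Myct1 (3.40 ± 0.73), the ETS factor gene Fli1 (3.04 ± 0.76), Arhgef15 (2.81 ± 0.62), the Notch ligand gene Dll4 (2.49 ± 0.62), Podxl (2.48 ± 0.42), Rasip1 (2.20 ± 0.46), Sox7 (2.19 ± 0.37), Tbx1 (1.78 ± 0.33) and Calcrl (2.11 ± 0.28), the receptor that RAMP2 accompanies. No p-value is given for these, since some may also have passed the filter only through Lrig1 control. Icam1, an adhesion molecule that keratinocytes also make, fell by 1.33 ± 0.26. The count of 17 calls became 1 without either K14 control library and 0 without either Lrig1 control library.

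In Lrig1 ablation against Lrig1 control, 7 of the 54 fell and 0 rose in limma, where 4.06% of all genes tested passed. Ptprb fell by 5.18 ± 0.69 (log2 difference ± SE, adjusted p = 0.0101), Vcam1, a leukocyte adhesion molecule of activated endothelium, had a difference of -4.44 ± 0.91, Adgrl4 of -4.13 ± 0.68, Adgrf5 of -3.30 ± 0.47, Calcrl of -1.45 ± 0.28, the mural gene Notch3 of -1.22 ± 0.18 and Thbd of -1.11 ± 0.24. Adgrl4 had no read in either Lrig1 ablation library, so its value depends on the pseudocount, and it was at least 6.53-fold lower there. Thbd, thrombomodulin, was at 1812 and 1873 (K14 control), 1685 and 1222 (K14 ablation), 1917 and 1744 (Lrig1 control), and 1078 and 667 (Lrig1 ablation), and is made by keratinocytes too. The count of 7 became 0 without either Lrig1 control library, 2 without either K14 control library, and 15 and 13 without Lrig1 ablation 1 and 2.

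Tbx1, a transcription factor gene of lymphatic and other tissues, was the 1 gene of the 54 that passed between the ablation groups, higher in Lrig1 ablation by 2.33 ± 0.33 (log2 difference ± SE, limma adjusted p = 0.0303), where 0.667% of all genes passed. The count of 1 became 0 without any 1 of the 4 control libraries, 3 and 4 without K14 ablation 1 and 2, and 16 without Lrig1 ablation 1. Tbx1 was at 49.8 and 59.1 (K14 control), 42.5 and 69.7 (K14 ablation), 203 and 175 (Lrig1 control), and 209 and 370.2 (Lrig1 ablation), so that its Lrig1 ablation libraries lay above those of Lrig1 control. In K14 ablation against K14 control 0 of the 54 passed in limma, edgeR or DESeq2. An unadjusted limma p under 0.05 was found for 8 of them, and for 2327 of all 18140 genes tested. The endothelial list's 4 most abundant genes, Notch1, Efnb2, Cav1 and Palmd, were at 959 to 7278 in all libraries. Notch1 is a receptor that keratinocytes use as well. Of the lymphatic growth factors, Vegfc was at 0 to 2.14 in all libraries and Vegfd at 209 and 179 (K14 control), 151 and 170.5 (K14 ablation), 132 and 137 (Lrig1 control), and 215 and 186 (Lrig1 ablation). Vegfa was at 466 and 474 (K14 control), 531 and 612 (K14 ablation), 400.5 and 344 (Lrig1 control), and 269.8 and 334 (Lrig1 ablation), with Lrig1 control below both K14 groups. Of 11 tested growth factor genes 1 passed in Lrig1 control against K14 control, a share near the 8.79% of all genes tested. This was Angptl2, at 137 and 185 (K14 control), 139 and 309.8 (K14 ablation), 1076 and 998 (Lrig1 control), and 476 and 927 (Lrig1 ablation), with a difference of 2.69 ± 0.41 (adjusted p = 0.00892).

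Mural genes, those of pericytes and smooth muscle in the vessel wall, summed to 2067 to 2122 (K14 control), 2439.6 to 2562 (K14 ablation), 2843 to 2851 (Lrig1 control) and 2211 to 2418 (Lrig1 ablation), but the sum was carried by Notch3, Cspg4, Ndufa4l2 and Tagln, which other cells also make. The defining pericyte genes were at or near 0: Pdgfrb at 0.985 to 5.64, Rgs5 at 0 to 3.05, Higd1b at 0 to 4.78, Abcc9 at 0 to 2.82 and Kcnj8 at 0 to 1.59 over the 8 libraries. Platelet genes, of interest because Mmrn1, Selp, Vwf and Pecam1 are also made by megakaryocytes, summed to 136 to 147 (K14 control), 94.3 to 122 (K14 ablation), 224 to 249.1 (Lrig1 control) and 106 to 192 (Lrig1 ablation). Of the 11 platelet genes 7 were at or near 0 and not tested, among them Gp9 at 0 to 0.985, Ppbp at 0 to 0.796 and Pf4 at 0 to 5.82. Of the 4 tested, Gp1bb, a subunit of the platelet receptor for von Willebrand factor, was at 73.1 and 69.9 (K14 control), 53.1 and 30.02 (K14 ablation), 165 and 148 (Lrig1 control), and 31.1 and 64.5 (Lrig1 ablation). It fell by 1.78 ± 0.39 in Lrig1 ablation against Lrig1 control (log2 difference ± SE, limma adjusted p = 0.0471), where 3.3% of all genes tested were called lower. This 1 call of 4 was also made with DESeq2. The count of platelet calls became 0 with edgeR, with array weights, without the filter and with scaling to equal totals. It was also 0 in a fit of only these groups and with a replicate block. The integrin gene Itgb3, which endothelial cells also make, was at 9.14 and 14.8 (K14 control), 8.49 and 3.22 (K14 ablation), 17.5 and 22.6 (Lrig1 control), and 2.66 and 4.78 (Lrig1 ablation), with a difference of -2.18 ± 0.57 (adjusted p = 0.0762). Both thus peaked in Lrig1 control as the vascular genes did, while Itga2b and Gp1ba did not; the part of platelets in the members' levels was not tested.

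The markers of other cell types differed in how far they followed the vascular pattern. The highest myeloid sum was that of K14 ablation 2. Fibroblast genes (9) summed to 208 to 240.2 (K14 control), 444 to 451 (K14 ablation), 466 to 538 (Lrig1 control) and 764 to 857 (Lrig1 ablation), and in Lrig1 control against K14 control 4 of 6 tested rose (Col1a1, Col3a1, Fbln1 and Pdgfra), where 6.52% of all genes tested were called higher. Unlike the vascular sums, the fibroblast sum was highest in Lrig1 ablation. Myeloid genes (15) summed to 422 to 557 (K14 control), 529 to 1352 (K14 ablation), 898 to 1145 (Lrig1 control) and 274 to 318 (Lrig1 ablation), and 5 of 11 tested rose in Lrig1 control against K14 control (Cd207, Csf1r, Lyz2, Mrc1 and Ptprc). Without either Lrig1 control library both counts became 0, and calls over all genes fell from 1594 to 2 and 1. Without K14 control 1 and 2 they became 0 and 0 for fibroblast genes and 0 and 1 for myeloid genes. In Lrig1 ablation against Lrig1 control 1 of 6 tested fibroblast genes (Fbln1) rose and 1 of 11 tested myeloid genes (Lyz2) fell. Among all genes tested, 0.766% were called higher and 3.3% lower. The myeloid count was 5 with DESeq2 and with a pseudocount of 5, and 0 with array weights and without the filter. Fbln1 also rose in K14 ablation against K14 control, by 1.26 ± 0.16 (log2 difference ± SE, limma adjusted p = 0.0322), where 0.187% of all genes tested passed. Mrc1, a receptor of dermal macrophages, was at 1.02 and 0 (K14 control), 10.6 and 3.22 (K14 ablation), 23.3 and 32.4 (Lrig1 control), and 2.66 and 3.18 (Lrig1 ablation). Mrc1 passed the filter on low values only through the Lrig1 control libraries. The counts of fibroblast and myeloid calls therefore describe the tested genes and support no statement on the lists. In the comparison of the ablation groups, in which Lyve1 was higher and Stab1 lower, the myeloid sum was lower and the fibroblast sum higher in Lrig1 ablation, with no overlap of libraries in either case. Fabp4, a gene of adipocytes and capillary endothelium, was at 5.08 and 0.985 (K14 control), 5.66 and 5.36 (K14 ablation), 33.8 and 36.7 (Lrig1 control), and 0.887 and 1.59 (Lrig1 ablation). Genes of adipocytes summed to 8.86 to 10.2 (K14 control), 7.075 to 13.9 (K14 ablation), 33.8 to 38.1 (Lrig1 control) and 4.44 to 5.57 (Lrig1 ablation). Their sum thus peaked in Lrig1 control as the vascular sums did, but nearly all of it there was Fabp4. Of the 4 adipocyte genes found, 1 (Fabp4) was tested, and 2 had no read in either Lrig1 control library. Over the libraries, genes of erythroid cells summed to 9.65 to 45.4, of melanocytes to 204 to 359.8 and of Schwann cells to 31.4 to 125. The sum of 7 T cell genes went the other way, at 676 to 715 (K14 control), 562 to 719 (K14 ablation), 224 to 228 (Lrig1 control) and 94.7 to 288 (Lrig1 ablation). Of these 7 genes, 2 passed the filter and 3 had no read in either K14 control library. The sum thus rests on few genes and does not describe T cell markers as a set. The part of these cell types in the levels of the endothelial genes was not tested.

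**Figure D5:**
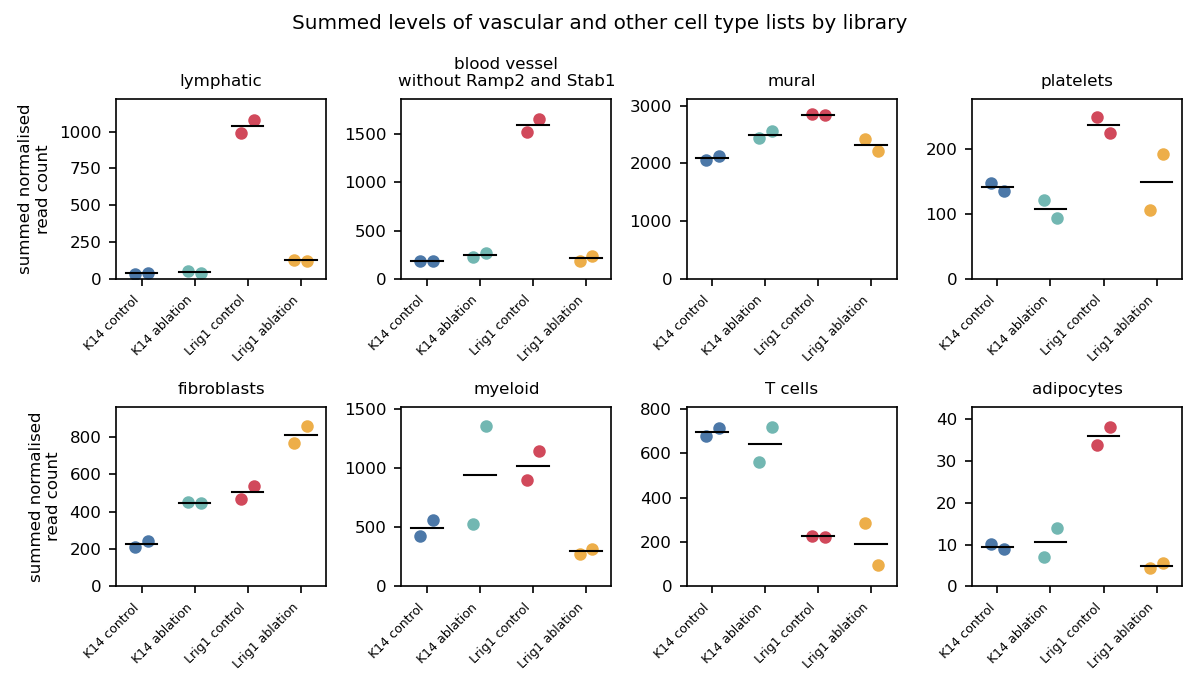
Summed normalised read counts (y axes from 0) of 8 gene lists in each library; points are libraries and lines the means of 2. The blood vessel panel leaves out Ramp2 and Stab1, a choice made after the values were seen. That sum and the lymphatic, platelet, adipocyte and mural sums peak in Lrig1 control, the mural sum staying between 2067 and 2851. In Lrig1 control the adipocyte sum is nearly all Fabp4. The fibroblast sum is highest in Lrig1 ablation (764 to 857).

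Outside all lists, the 7 genes most like the mean of all 34 members across the 8 libraries (Pearson's r of log2 values, a description over libraries that share 4 groups) were Slc31a1, Cd53, Golga2, 4833439L19Rik, Krtap21-1, Gm10228 and Krtap1-3, with r from 0.997 to 0.989. Slc31a1, a copper transporter gene of many cells, was at 336 and 322 (K14 control), 371 and 357 (K14 ablation), 702 and 715 (Lrig1 control), and 355 and 362 (Lrig1 ablation). Cd53, a leukocyte tetraspanin gene, was at 3.05 and 2.95 (K14 control), 4.95 and 4.29 (K14 ablation), 17.5 and 22.6 (Lrig1 control), and 4.44 and 3.18 (Lrig1 ablation). These 2 thus peak in Lrig1 control at very different levels. Within the set, r with the members' mean ran from 0.992 for Cdh5 to 0.35 for Ramp2, -0.09 for Stab1 and -0.50 for Stab2.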

How the data were processed

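RNA-seq was measured in 8 libraries, 2 in each of 4 groups taken from the labels. Per the labels' protocols, sorted cells were lysed in RLT buffer, RNA was extracted with an RNeasy Micro kit and cDNA libraries were made with Ovation Solo. What the authors deposited is a signal, normalised per library, for each gene. Per the submitters' processing notes, the builds were GRCm38 and mm10 and the tools Trimmomatic, STAR, Picard and HTSeq 0.11.1; the sources used here do not give their settings, strand handling, annotation release or the program behind the size factors. In every library 100% of the values were whole multiples of 1 step within a tolerance of 0.001, so whole reads were recovered from the deposited signal for edgeR 4.0.16 and DESeq2 1.42.0. These called 32 and 220 genes in K14 ablation against K14 control, 135 and 664 in Lrig1 ablation against K14 ablation, 588 and 995 in Lrig1 ablation against Lrig1 control and 1396 and 1619 in Lrig1 control against K14 control.

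The ablation columns of the table are not named as in the labels. They were assigned by elimination, since the other columns carry the names of the controls, and their numbers come from the column names (1.1 read as 1).

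The main test was limma 3.58.1 (R 4.3.3) with a variance trend on log2(value + 1), in 1 fit of 4 group means over 8 libraries (4 residual degrees of freedom), with Benjamini-Hochberg adjustment over the 18140 genes that reached a share of 1e-06 of all signal in 2 or more libraries; the script was tested on simulated data. Single values were compared by exact permutation tests. Coordinates and exon lengths came from GENCODE M21 (GRCm38), in which 32427 of 32574 identifiers were found, and promoter windows from RefSeq (GRCm38.p6). Of the genes on the lists, Ccl21a, Des, Hba-a2 and Adipoq were not in the table, and for Itgam, which has more than 1 row, the row with the larger mean was used.

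The members and the lists were chosen with earlier results of these data known. Values in all libraries are given for the lymphatic genes, for any member past the threshold in a comparison without Lrig1 control, for the 15 blood vessel genes with the largest mean, for members at 0 in both libraries of 2 or more groups, and for Ecscr, chosen after its values were seen. Of other lists, genes past the threshold and the 4 most abundant fall under the rule for naming; of lists other than the vascular ones only those the text turns on are named. The rule for genes of a like pattern takes 10, of which some are not reported here. The lists for erythroid cells, melanocytes and Schwann cells were also summed. Counting intervals and floors cover counting error only, since reads without molecular identifiers are not independent molecules.

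The alternatives were other pseudocounts, no filter, edgeR, DESeq2, a fit of only the groups compared, array weights, a replicate block, scaling to equal totals and leaving out each library.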

Additional observations from a re-analysis of the deposited data

Results flagged for a closer look

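Between the K14 and the Lrig1 pairs of groups, 15 of the 34 members lay in opposite directions: both ablation libraries lay above both controls in K14 and both lay below both controls in Lrig1. The share among all genes tested was 6.31%, against 12 of the 26 tested members, but the position in Lrig1 is largely fixed, since the genes were chosen for their level in Lrig1 control. The difference of the ablation effects (Lrig1 minus K14, from mean log2(value + 1)) was -4.41 for Flt4 and -3.97 for Reln among the lymphatic genes. Among the tested blood vessel genes it was -6.54 for Kdr, -6.23 for Emcn, -5.52 for Ecscr, -5.42 for Cdh5, -5.06 for Plvap, -4.57 for Tie1, -3.47 for Cldn5, -2.50 for Mmrn2, -1.80 for Egfl7 and -1.31 for Stab1. For those under the filter on low values it was -4.03 for Erg, -2.97 for Esam and -2.05 for Aplnr. Stab2 lay the other way, below control in K14 and above it in Lrig1, with a difference of 1.09. Each is given for the position of its libraries alone, and the difference was not tested. None of the tested ones passed the test in K14 ablation against K14 control in the fit of all 8 libraries, and in K14 control Emcn had 1 read and Kdr none.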

How the results depend on the processing

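Of the values recomputed, none that passed its test passed it in the opposite direction under any alternative tried. The difference in the log2 ratio of lymphatic to blood vessel sums ranged from 1.74 to 2.69 between the ablation groups and from -0.32 to -0.098 between the K14 groups. With mean log2 levels of the lists in place of sums, it was 1.58 and -0.20. The count of members called in K14 ablation against K14 control (0) was 1 (Kdr) with array weights, in Lrig1 ablation against K14 ablation (2) it was 0 with array weights and 0 in a fit of only these groups, and in Lrig1 ablation against Lrig1 control (17) it was 11 in such a fit. Leaving out 1 library at a time gave 0 to 1, 0 to 4 and 0 to 19 calls in these comparisons, and 0 to 21 in Lrig1 control against K14 control (19).

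Among the other vascular genes, calls in K14 ablation against K14 control (0) became 3 with array weights. In Lrig1 ablation against K14 ablation (1) they became 9 with DESeq2, and 0 in a fit of only these groups and with array weights. In Lrig1 ablation against Lrig1 control (7) they became 12 with a pseudocount of 5, 2 in a fit of only these groups and 13 (3 higher and 10 lower) with scaling to equal totals. In Lrig1 control against K14 control (17) they became 34 in a fit of only these groups and 34 with array weights. Leaving out 1 library gave 0 to 2, 0 to 16, 0 to 15 and 0 to 22. With that scaling the median of all genes in Lrig1 ablation against Lrig1 control was 0.21 instead of -0.017, and calls were 543 higher and 421 lower instead of 139 and 598. The causes were not tested.

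With the replicate number as a block, 0, 2, 16 and 19 members and 0, 1, 5 and 16 other vascular genes were called, in the order of comparisons above, and 21 instead of 34 of all genes in K14 ablation against K14 control. Libraries of the same number did not deviate together (correlations of -0.049 to 0.084), so they share only a number. With 2 libraries a group, and many members at a few reads outside Lrig1 control, small differences were not detectable at this depth.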
